A study of Mus musculus with 4 samples.

Results

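Runx2 occupancy was examined at the genes of 8 secreted antagonists of Wnt signaling: Sost, Dkk1, Dkk2, Dkk3, Sfrp1, Sfrp2, Sfrp4 and Wif1. The gene body of each (GENCODE M1, mouse build mm9) was widened by 50 kb on either side, and every Runx2 peak that shared at least 1 bp with this window was taken. The 8 windows, which cover 1069 kb, held 17 of the 25457 peaks of day 0, 38 of the 60596 peaks of day 9 and 27 of the 40330 peaks of day 28. Peaks of different days that overlapped were merged, which gave 47 of 67703 regions.

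The peaks come from chromatin immunoprecipitation followed by sequencing (ChIP-Seq) with a Runx2 antibody (M70) in MC3T3-E1 subclone 4, a preosteoblast line from mouse calvaria (C57BL/6). All cells were of this 1 subclone, the labels name no transgene or knockdown, and differentiation was induced with ascorbic acid and beta-glycerophosphate. The 3 groups were proliferating preosteoblasts at day 0, matrix-depositing osteoblasts at day 9 and mineralizing osteoblasts at day 28. The 2 libraries of each day were pooled by the authors before peaks were called against input DNA of day 9, so 1 list stands for each day and no difference between days has a replicate error or a test. The lists hold no read counts, so depth cannot be read from them, and no expression, so the labelled cell type was not checked against markers. Each peak carries a score of 10 times the negative log10 of its MACS p-value, with 100 as the lowest score kept. This score depends on depth, and a peak is therefore placed by its percentile within the list of its own day, from 0 for the weakest to 100 for the strongest peak.

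Wnt ligands signal by bringing together a Frizzled receptor and the co-receptor Lrp5 or Lrp6, which stabilizes beta-catenin and favors bone formation. Sclerostin, the product of Sost and a secreted protein of osteocytes, and the Dickkopf proteins Dkk1 and Dkk2 bind Lrp5 and Lrp6, whereas the secreted Frizzled-related proteins (Sfrp1, Sfrp2 and Sfrp4) and Wif1 bind the Wnt ligand itself. Runx2, the master transcription factor of the osteoblast lineage, recognizes the core sequence TGTGGT in DNA.

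The sequences at the strongest peaks show what the occupied DNA looked like, and the first set gives, for every gene whose highest-ranked day 9 peak held a TGTGGT on either strand, the bases around the copy nearest to the peak center. Capitals mark TGTGGT, each sequence runs 5′ to 3′ on the strand on which that copy reads TGTGGT, and positions are those of mm9. The copy in the last exon of Dkk3 lay 5 bp from the peak center, in the coding part of the exon. Those of Dkk1, Dkk2 and Sfrp4 lay 57, 42 and 47 bp from their centers. The Dkk2 stretch holds a second copy in the same orientation.
Dkk1, 52.8 kb past the start (chr19:30571309-30571409, minus strand): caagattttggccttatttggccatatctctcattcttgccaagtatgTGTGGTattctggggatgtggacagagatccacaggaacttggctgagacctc
Dkk2, 34.1 kb upstream (chr3:131714165-131714265, minus strand): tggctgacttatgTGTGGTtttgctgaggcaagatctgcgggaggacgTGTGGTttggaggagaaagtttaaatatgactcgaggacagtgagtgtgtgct
Dkk3, exon 8 (chr7:119261845-119261945, plus strand): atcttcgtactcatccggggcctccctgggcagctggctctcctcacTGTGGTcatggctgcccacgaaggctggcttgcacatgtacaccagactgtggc
Sfrp4, 31.8 kb upstream (chr13:19682996-19683096, plus strand): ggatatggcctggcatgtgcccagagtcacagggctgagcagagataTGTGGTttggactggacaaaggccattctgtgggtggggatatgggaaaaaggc

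The highest-ranked day 9 peaks of the other 4 genes held no TGTGGT, and the bases around their centers are given as read on the plus strand. Those of Wif1, Sost and Sfrp2 lay at start sites of transcription, of Wif1 itself, of the neighbor Dusp3 and of the long non-coding RNA Gm16790. The only day 9 peak of Sfrp1 lay over a run of tg repeats.
Sost, 17.6 kb upstream (chr11:101845914-101846014, plus strand): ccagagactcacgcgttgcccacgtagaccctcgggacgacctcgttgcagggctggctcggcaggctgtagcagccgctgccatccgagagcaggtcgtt
Sfrp1, 10.9 kb upstream (chr8:24511002-24511102, plus strand): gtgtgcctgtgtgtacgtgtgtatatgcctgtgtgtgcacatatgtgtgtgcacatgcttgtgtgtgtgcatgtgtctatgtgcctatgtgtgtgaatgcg
Sfrp2, 23.6 kb past the start (chr3:83593734-83593834, plus strand): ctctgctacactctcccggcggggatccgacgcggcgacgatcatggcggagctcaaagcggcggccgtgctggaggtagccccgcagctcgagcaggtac
Wif1, start site (chr10:120470845-120470945, plus strand): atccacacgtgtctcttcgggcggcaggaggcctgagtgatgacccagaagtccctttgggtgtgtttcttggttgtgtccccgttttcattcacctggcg

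The last set was chosen after the values were seen and gives 4 regions with a day pattern described in the text: a region downstream of Sost with peaks at days 9 and 28, the highest-ranked day 0 peak of all 8 genes (Dkk3, intron 4), and a pair of regions on either side of Sfrp2. These were read around the TGTGGT nearest to the center of the day 9, day 0, day 0 and day 28 peak, respectively.
Sost, 36.8 kb past the start (chr11:101791445-101791545, minus strand): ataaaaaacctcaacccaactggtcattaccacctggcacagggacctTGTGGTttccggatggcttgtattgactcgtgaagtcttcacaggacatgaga
Dkk3, intron 4 (chr7:119291799-119291899, minus strand): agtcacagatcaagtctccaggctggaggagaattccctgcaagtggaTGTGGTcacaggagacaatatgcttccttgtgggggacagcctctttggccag
Sfrp2, 25.9 kb upstream (chr3:83544268-83544368, minus strand): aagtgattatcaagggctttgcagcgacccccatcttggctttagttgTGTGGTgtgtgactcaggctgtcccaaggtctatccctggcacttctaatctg
Sfrp2, 17.7 kb past the start (chr3:83588099-83588199, minus strand): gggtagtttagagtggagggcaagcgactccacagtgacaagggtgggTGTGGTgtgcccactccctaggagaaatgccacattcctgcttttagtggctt

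Runx2 peaks were present in the windows of 5 of the 8 genes at day 0 and of all 8 at days 9 and 28. Of 22367 protein-coding genes treated in the same way, 73.8% had a peak in the window at day 0, 83.2% at day 9 and 78.4% at day 28. Dkk1, Dkk2 and Sfrp1 had no peak at day 0. The antagonists thus included genes with and without a called peak at day 0, and the share with a peak at each day was of the order of that of all genes.

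**Figure D1:**
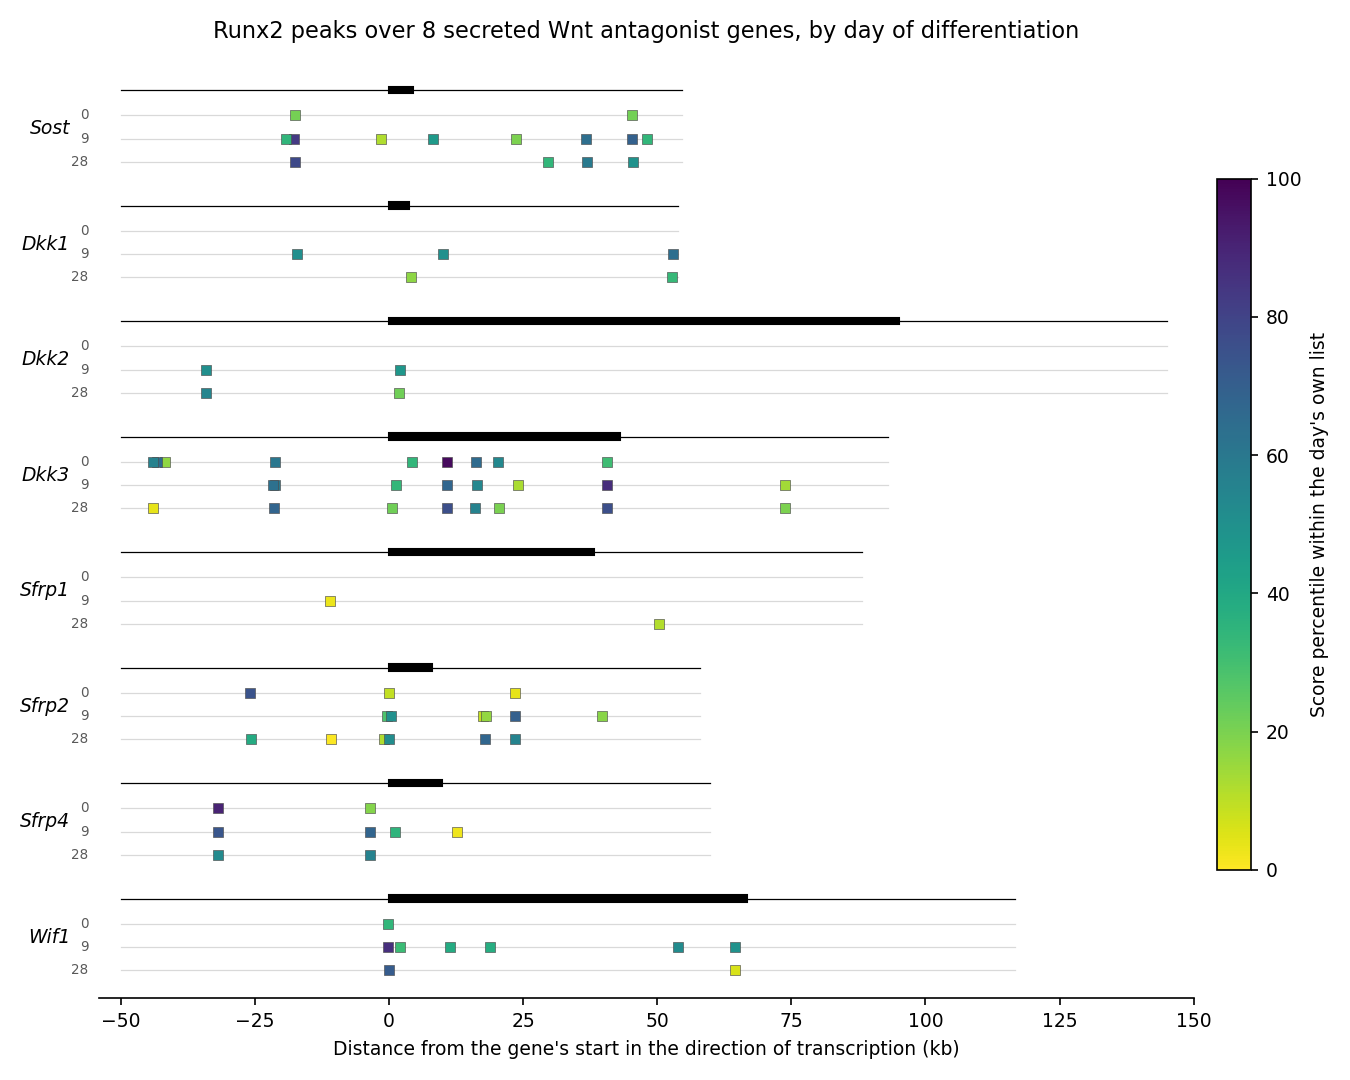
Runx2 peaks along the window of each gene. The horizontal axis is the distance from the gene's start in the direction of transcription (kb), black bars are gene bodies, and squares are peak centers at day 0, 9 and 28 (rows), colored by score percentile within the day's list. Dkk3 is the gene with the most peaks at day 0 (9), and Dkk1, Dkk2 and Sfrp1 have none at that day.

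Peak counts at day 0, day 9 and day 28 were 2, 8 and 4 for Sost, 0, 3 and 2 for Dkk1, 0, 2 and 2 for Dkk2, and 9, 8 and 8 for Dkk3. Among the Wnt-binding antagonists, the counts were 0, 1 and 1 for Sfrp1, 3, 6 and 6 for Sfrp2, 2, 4 and 2 for Sfrp4, and 1, 6 and 2 for Wif1. Of the 8 genes, 7 had more peaks at day 9 than at day 0, as had 71.9% of all genes, and Dkk3 was the 1 gene with more at day 0, an order found in 4.01% of all genes. For Dkk3 this order rests on 1 peak (9 against 8) and changed with the settings, as given below. From day 9 to day 28, 4 of 8 genes had fewer peaks (62.8% of all genes), 4 had equal numbers and 0 had more. The shares of all genes with equal numbers or with more were not counted.

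The lists differ in length by a similar factor. The ratio of day 9 to day 0 peaks was 2.24 for the 8 genes and 2.38 for the whole lists, and the ratio of day 28 to day 9 peaks was 0.711 and 0.666. With the day 9 and day 28 lists cut to their 25457 peaks of highest score, as many as the day 0 list holds, the totals were 17, 12 and 15. Then 2 of 8 genes (Sost and Dkk1) had more peaks at day 9 than at day 0, where 29.7% of all genes did, and 2 (Dkk3 and Sfrp2) had more at day 0, where 26.5% of all genes did. The excess of day 9 peaks over day 0 peaks was therefore present in the full lists and absent in lists of equal length.

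Per 100 kb of window, the full lists gave Dkk3 6.29 peaks at day 0, percentile 93.3 of all protein-coding genes, and 5.59 at day 9, percentile 65.5. Sost had 1.91 at day 0 (percentile 56.7) and 7.65 at day 9 (percentile 76.5), the highest density of the 8 genes at that day. Sfrp1 was at the opposite end with 0.724 at day 9 (percentile 19.8). The median gene had 1.63, 3.53 and 2.42 peaks per 100 kb at days 0, 9 and 28, and 4, 5 and 3 of the 8 antagonists lay above it. Without Dkk3, the other genes held 8, 30 and 19 peaks, a ratio of day 9 to day 0 of 3.75. Dkk3 was left out after its high day 0 count was seen, and this choice favors a higher ratio. With Dkk3 the ratio was 2.24, and for the whole lists it was 2.38.

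**Figure D2:**
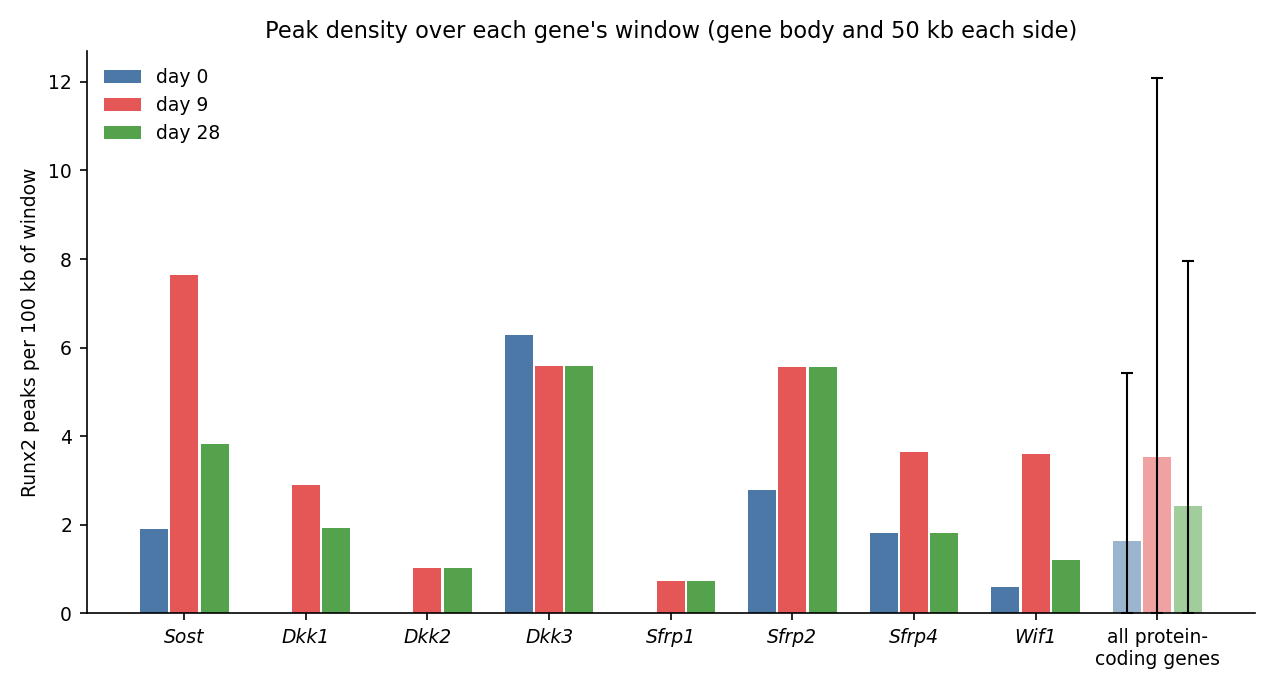
Runx2 peaks per 100 kb of window (vertical axis) for each antagonist at days 0, 9 and 28. Each bar is 1 pooled list and has no error. The last bars are the median of 22367 protein-coding genes, with lines from the 10th to the 90th percentile of genes. Dkk3 at day 0 (6.29) is the only bar above the 90th percentile of its day (5.43).

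Sost lay in the window with the most day 9 peaks per kb, but none of its peaks covered its start site. The gene has 2 exons (chr11:101823772-101828329, minus strand), and its 9 regions all lay outside the gene body. The nearest to the start was a day 9 peak 1.56 kb upstream, with a score of 118 (percentile 12.1). Sost was thus flanked by peaks on both sides rather than covered by one.

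The strongest peak in the Sost window lay 17.6 kb upstream (chr11:101845287-101846583), over a start site of Dusp3, a dual-specificity phosphatase gene. It scored 147 at day 0 (percentile 21.0), 1157 at day 9 (percentile 83.0) and 983 at day 28 (percentile 77.8). On the downstream side, a region 45.2 kb past the start (chr11:101782300-101783920) scored 148, 556 and 322 at the 3 days (percentiles 21.4, 69.5 and 49.0). It was closer to the start of Meox1, a homeobox gene, than to that of Sost. Both regions present at all 3 days therefore ranked lowest at day 0 and highest at day 9.

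A region 36.8 kb past the Sost start (chr11:101791147-101791889) had no peak at day 0 and scored 434 at day 9 (percentile 64.0) and 454 at day 28 (percentile 59.0). The same downstream side held single-day peaks at 8.18, 23.7 and 48.1 kb (day 9) and at 29.6 kb (day 28). As background, distant regulatory DNA downstream of the gene is known for Sost, and whether any of these regions is such an element was not examined here. Of the 9 regions, 4 were nearest to the start of Sost, 3 to that of Meox1 and 2 to that of Dusp3.

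Dkk1, a blocker of Lrp5 and Lrp6 expressed in the osteoblast lineage, had 4 regions, all nearest to its own start and none over the gene (chr19:30620353-30624155, minus strand, 4 exons). The region 52.8 kb past the start scored 440 at day 9 (percentile 64.3) and 202 at day 28 (percentile 32.9) and holds 4 copies of TGTGGT. The others were single-day peaks: at day 9 17.1 kb upstream (271, percentile 50.7) and 10.0 kb past the start (266, percentile 50.1), over the pseudogene Gm5972, and at day 28 4.09 kb past the start, just beyond the end of the gene (139, percentile 17.1). No Dkk1 region had a peak at day 0.

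Dkk2, which binds the same co-receptors, had 2 regions (chr3:131748256-131843257, plus strand, 4 exons), each with a peak at day 9 and day 28 and none at day 0. The region 34.1 kb upstream scored 269 at day 9 (percentile 50.5) and 387 at day 28 (percentile 54.6). The region in intron 1, 1.97 kb past the start, scored 244 (percentile 47.1) and 154 (percentile 21.7). The upstream region thus lay near the middle of both lists, and the intronic one ranked lower at day 28 than at day 9.

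Dkk3 had the most Runx2 peaks of the 8 genes at day 0. It is the divergent member of the Dickkopf family (chr7:119259533-119302571, minus strand, 8 exons), and its window held 13 regions, 9 of them nearest to its own start. Its 9 peaks at that day were more than those of the other 7 genes together (8). The excess over day 9 was 1 peak and turned to an excess at day 9 of 5 peaks with flanks of 100 kb, and of 1 peak at a p-value of 1e-50 or with only the regions nearest to the start of Dkk3. With flanks of 10 kb or at a p-value of 1e-100, Dkk3 had equal numbers at these days. With lists of equal length Dkk3 had 9 peaks at day 0 against 4 at day 9, where only day 9 peaks with a score of at least 346 were kept. All 3 regions of the 8 windows with a peak at day 0 alone were in this window: in intron 2, 4.29 kb past the start (192, percentile 34.0), and 41.7 and 43.2 kb upstream (135 and 404, percentiles 16.5 and 65.6), the last pair nearest to the start of Mical2.

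The strongest Dkk3 peak of day 0 lay in intron 4, 10.8 kb past the start (chr7:119291358-119292198). It scored 1963 at day 0, percentile 97.4, 501 at day 9 (percentile 67.3) and 915 at day 28 (percentile 76.1). The rank was thus highest in the proliferating cells. Its shift from day 0 to day 9 was -30.1 percentile points, and 5.06% of the 19730 regions with a peak at both days had a lower shift. The median shift of those regions was 14.8 points. This region was picked for its top day 0 rank, which left little room to rise. Its shift is therefore descriptive only and was not tested.

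The last exon of Dkk3, 40.7 kb past the start (chr7:119261495-119262250), had the opposite order. It scored 180 at day 0 (percentile 30.9), 1550 at day 9 (percentile 87.4, the highest percentile of any day 9 peak of the 8 genes) and 908 at day 28 (percentile 75.9). Its shift of 56.5 points from day 0 to day 9 was above that of 92.8% of shared regions. This region was picked for its top day 9 rank, which favors a rise, and the shift was not tested. Within 1 gene, then, an intronic region had its top rank at day 0 and an exonic region at day 9.

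A further pair of Dkk3 regions had peaks at every day. In intron 4, 16.1 kb past the start, the scores were 401, 298 and 401 at days 0, 9 and 28 (percentiles 65.4, 53.7 and 55.7). At 21.3 kb upstream, where the day 9 list held 2 peaks, the highest scores were 352, 415 and 633 (percentiles 60.4, 62.9 and 67.7). Both stayed in the middle to upper part of each list. Regions 20.4 kb past the start and 44.0 kb upstream had peaks at days 0 and 28 but not at day 9, with scores of 292 and 316 at day 0 and 148 and 107 at day 28.

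Sfrp1, a Wnt-binding antagonist with a Frizzled-type cysteine-rich domain, was the least occupied of the 8 genes (chr8:24521974-24560104, plus strand, 3 exons). Its 2 regions were a day 9 peak 10.9 kb upstream with a score of 104 (percentile 2.76) and a day 28 peak 50.4 kb past the start with a score of 125 (percentile 11.7). Both were among the weakest peaks of their lists, and at a p-value of 1e-20 the window held 0, 0 and 0 peaks. That a peak was not called does not show that Runx2 was absent, since a peak is listed only past the p-value of 1e-10.

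Sfrp2, of the same family (chr3:83570243-83578238, plus strand), had a peak over an annotated start site at all 3 days (chr3:83569637-83570951, reaching into exon 1 of 3). It scored 118 at day 0 (percentile 9.30), 267 at day 9 (percentile 50.2) and 348 at day 28 (percentile 51.4). The rank at the start site was lowest at day 0. Day 9 held 2 adjacent peaks here (chr3:83569637-83570192 and chr3:83570252-83570874), with the first base of the gene in the gap between them. The start site covered at day 9 was another annotated start of Sfrp2, inside the gene. Day 9 held 2 more peaks 17.7 kb past the start. With peaks closer than 500 bp joined, Sfrp2 had 3, 4 and 5 peaks in place of 3, 6 and 6.

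Outside the start site, 3 Sfrp2 regions differed in their order over time. At 25.9 kb upstream (chr3:83543882-83544814), the score was 520 at day 0 (percentile 74.6) and 238 at day 28 (percentile 39.0), with no peak at day 9. At 17.7 kb past the start (chr3:83587448-83588536), within the long non-coding gene Gm16790, there was no peak at day 0, and the scores were 125 at day 9 (percentile 16.2) and 624 at day 28 (percentile 67.4). This region holds 6 copies of TGTGGT. Its shift of 51.1 points from day 9 to day 28 was above that of 99.8% of the 32903 regions with a peak at both days, although the day 9 signal was divided over 2 peaks. The region was picked after its values were seen, and the shift was not tested.

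The third region, 23.6 kb past the Sfrp2 start (chr3:83593207-83594379), covers the start of Gm16790 and scored 107, 563 and 392 at days 0, 9 and 28 (percentiles 3.56, 69.8 and 55.1). Like the start site it ranked lowest at day 0. Sfrp2 thus had early, intermediate and late maxima of rank within 1 window.

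Sfrp4, another Frizzled-related protein (chr13:19714973-19724863, plus strand, 5 exons), shares its upstream window with Epdr1, an ependymin-related gene on the opposite strand, and 2 of its 4 regions were nearest to the start of Epdr1. The region 31.8 kb upstream (chr13:19682779-19683481), just beyond the end of Epdr1, scored 989 at day 0, percentile 90.5, 663 at day 9 (percentile 73.1) and 361 at day 28 (percentile 52.6). The region over the Epdr1 start, 3.54 kb upstream of Sfrp4 (chr13:19710986-19711890), scored 140, 512 and 401 (percentiles 18.4, 67.7 and 55.7). The distal region thus ranked highest at day 0 and the one at the Epdr1 start at day 9. The regions with the start of Sfrp4 as the nearest start were single day 9 peaks in intron 1, 1.15 kb past the start (179, percentile 34.9), and 12.7 kb past the start (104, percentile 2.54).

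Wif1, the only antagonist here with a WIF domain, had a peak over its start site at every day (chr10:120470229-120471561, 121 bp upstream at its center). It scored 193 at day 0 (percentile 34.3), 1468 at day 9 (percentile 86.6) and 743 at day 28 (percentile 71.4), and holds no TGTGGT. This was the highest-ranked peak over a start site of an antagonist at each of the 3 days. The other 5 regions lay in introns 2, 6 and 9 of the gene (chr10:120471016-120537706, plus strand, 10 exons), and all had a day 9 peak. One of them, in intron 9, had a day 28 peak as well, with scores of 262 at day 9 (percentile 49.6) and 112 at day 28 (percentile 6.19).

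Peaks over a start site were therefore found at 2 of 8 genes, Sfrp2 and Wif1, at each of days 0, 9 and 28. For Sfrp2 at day 9 this was an annotated start inside the gene. Among all protein-coding genes the shares were 41.3%, 49.3% and 48.9%. Of the 47 regions, 16 lay in the gene body of the antagonist, 16 upstream and 15 downstream. By the position of the center relative to any protein-coding transcript, 18 were intergenic, 15 intronic, 5 exonic, 5 within 20 kb upstream of a gene, 2 within 1 kb upstream of a start and 2 close to a gene end. For 12 of the 47 regions the nearest start was that of another gene, and the peak lists do not show on which gene such a region acts. These position counts were not made over all regions, so they describe the 47 regions only. The windows also hold all or part of Dusp3, 1700006E09Rik and Mpp3 (Sost), Prkg1 (Dkk1), Usp47 (Dkk3), and Epdr1 and Txndc3 (Sfrp4).

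Of the 47 regions, 11 had a peak at all 3 days (23.4%, against 27.4% of all 67703 regions) and 17 at day 9 alone (36.2% against 34.5%). Days 9 and 28 shared 7 regions (14.9% against 21.1%), days 0 and 28 shared 3 (6.38% against 2.06%) and days 0 and 9 shared 0 (0% against 1.69%). Peaks at day 28 alone made up 6 regions (12.8% against 7.59%) and at day 0 alone 3 regions (6.38% against 5.60%). The regions were thus spread over the day patterns roughly as all regions were, and the regions that skipped day 9 came from Dkk3 (2) and Sfrp2 (1).

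In the 11 regions present throughout, the percentile was higher at day 9 than at day 0 in 8 and lower in 3, and the 3 lower ones were in Dkk3 (2, both in intron 4) and far upstream of Sfrp4. Over all shared regions, 25.9% had a lower percentile at day 9 than at day 0. From day 9 to day 28, 11 of 18 regions had a lower and 7 a higher percentile, where 71.4% of all shared regions had a lower one. The shares over all shared regions are given as the reference for these counts.

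**Figure D3:**
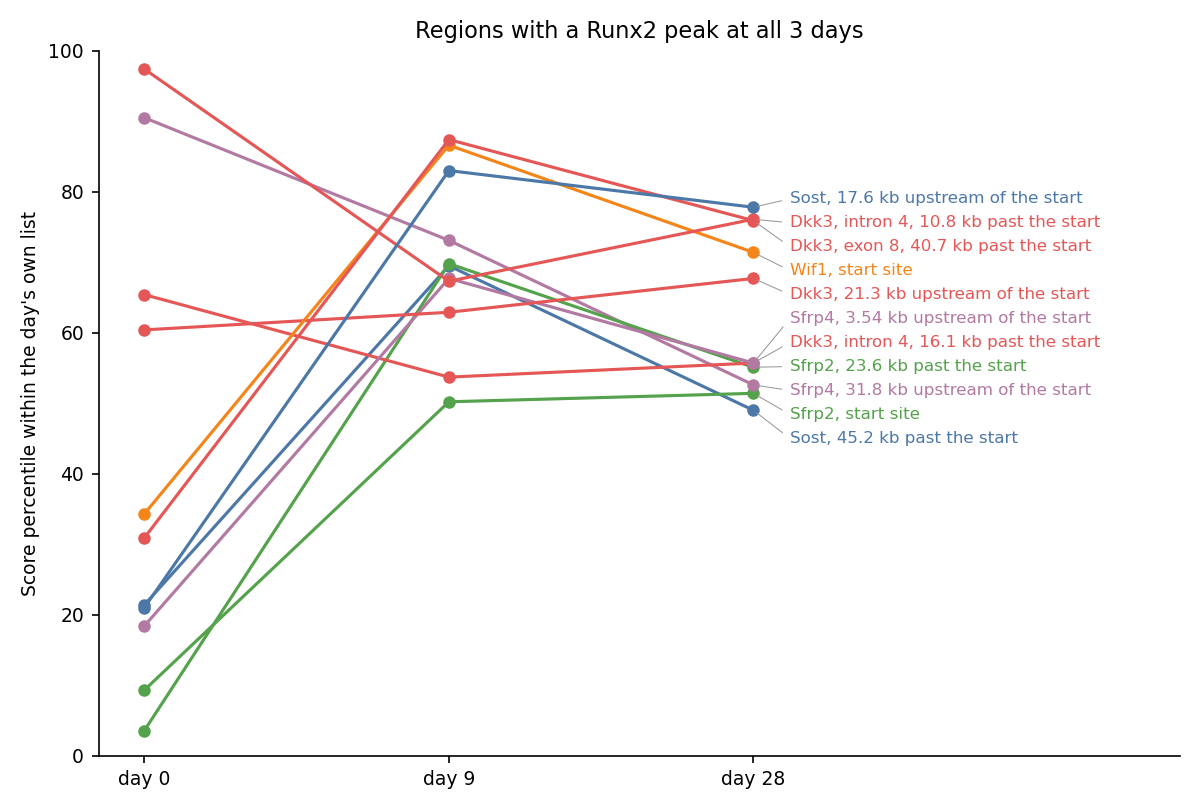
Score percentile within the day's own list (vertical axis) for the 11 regions with a Runx2 peak at days 0, 9 and 28 (horizontal axis), colored by gene. Each point is 1 peak of a pooled list, the highest where a region held 2, without an error. Dkk3 intron 4 (97.4) and the distal Sfrp4 region (90.5) are highest at day 0, and Dkk3 exon 8 (87.4), the Wif1 start site (86.6) and the region upstream of Sost (83.0) at day 9.

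Single peaks of the 8 genes ranged from percentile 0.762 (Sfrp2, 10.9 kb upstream, day 28) to 97.4 (Dkk3, intron 4, day 0). The median percentiles of the peaks at days 0, 9 and 28 were 34.3, 48.3 and 49.0, where 50.0 is the middle of each list by construction. Above the 90th percentile lay 2, 0 and 0 peaks. At a p-value of 1e-50, the windows held 3, 8 and 6 peaks, and at 1e-100 they held 1, 3 and 0. The day 0 peak that passed 1e-100 was that of Dkk3 intron 4, and the day 9 peaks were Dkk3 exon 8, the Wif1 start site and the region at Dusp3 upstream of Sost.

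The core motif TGTGGT, searched on both strands, was found within 50 bp of the center in 2 of 17 peaks at day 0 (11.8%, exact 95% binomial interval 1.46% to 36.4%), 10 of 38 at day 9 (26.3%, 13.4% to 43.1%) and 5 of 27 at day 28 (18.5%, 6.30% to 38.1%). The shares over all peaks were 16.0%, 25.3% and 20.9%, within these intervals, which cover counting error only. In windows of the same length 450 to 550 bp from the centers, the motif was found in 0 of 34 (which allows up to 10.3% by the same interval), 10 of 76 (13.2%) and 5 of 54 windows (9.26%), against 6.68%, 7.32% and 6.99% for all peaks. Within 100 bp of the center, 47.1%, 47.4% and 40.7% of antagonist peaks held the motif at days 0, 9 and 28. The shares over all peaks were 27.1%, 37.4% and 33.1%, above the lower interval limits of 23.0%, 31.0% and 22.4%. Motif content at the antagonist peaks was not distinguishable from that of all peaks at these numbers.

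**Figure D4:**
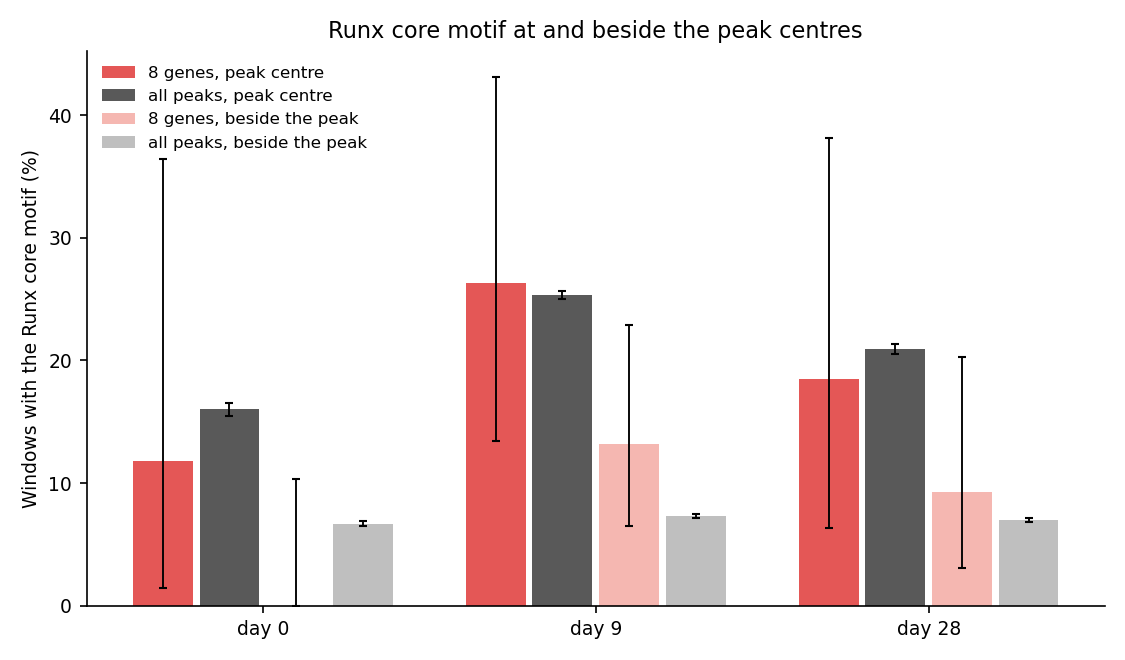
Percentage of windows with TGTGGT on either strand (vertical axis) at days 0, 9 and 28, within 50 bp of the peak center and in windows 450 to 550 bp beside it, for peaks of the 8 genes and all peaks. Lines are exact 95% binomial intervals. At day 9 the motif is at the center of 26.3% of antagonist peaks and 25.3% of all peaks.

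Anywhere in the region, 30 of 47 regions held the motif, and 14 held it at the center of a peak. The same shares over all merged regions were not counted. By single peaks, 64.7%, 57.9% and 70.4% of antagonist peaks at days 0, 9 and 28 held TGTGGT anywhere. Over all peaks the shares were 61.4%, 58.7% and 61.6%. Sfrp2 and Dkk3 had 4 of 7 and 3 of 13 regions with a central motif, Sost 3 of 9, and Sfrp1 0 of 2. The regions over the starts of Sfrp2 and Wif1 held none. Over all day 9 peaks, 36.7% of those over a start site held TGTGGT anywhere and 5.41% at the center, against 63.7% and 29.9% of those elsewhere. Lack of these letters says nothing about how Runx2 was held at these sites.

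Other genes of the pathway, listed by role, mostly had more peaks at day 9 than at day 0 too, the order of 71.9% of all genes. Of 7 further secreted antagonists or inhibitors (Frzb, Sfrp5, Dkk4, Dkkl1, Sostdc1, Notum and Cer1), 6 had more peaks at day 9 than at day 0 and Cer1 had more at day 0 (2 against 1). Notum, a Wnt-inactivating enzyme, had the most with 11, 27 and 19 peaks at days 0, 9 and 28, and was the only one with a peak over its start, at days 9 and 28. Of 15 receptors and co-receptors, 11 had more peaks at day 9 and 1, Lrp6, had more at day 0 (9 against 8), the same counts as Dkk3. Fzd3 and Fzd10 had no peak at any day, and the other 13 of the 15 had a peak at each day. Of all genes, 73.8%, 83.2% and 78.4% had a peak in the window at days 0, 9 and 28.

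The co-receptors that sclerostin, Dkk1 and Dkk2 bind had 12, 20 and 16 peaks (Lrp5) and 9, 8 and 8 peaks (Lrp6), and Kremen1, a Dickkopf receptor, had 5, 27 and 15. Both Lrp5 and Lrp6 had a peak over a start site at every day. All 6 nuclear effectors and feedback genes (Ctnnb1, Lef1, Tcf7, Tcf7l1, Tcf7l2 and Axin2) had more peaks at day 9 than at day 0 and a start-site peak at day 9. Start-site peaks at day 9 were thus found in 6 of 6 effectors, 12 of 15 receptors, 1 of 7 further antagonists and 2 of 8 antagonists described here, against 49.3% of all genes. The median density at day 9 was 10.3, 6.39, 3.84 and 3.62 peaks per 100 kb in the same order. These groups were listed with results of these data known, and differences between them were not tested.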

How the data were processed

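Runx2 ChIP-Seq was carried out on MC3T3-E1 cells on days 0, 9 and 28 of differentiation. Per the submitters' processing notes and the study's methods, reads from 2 libraries per day were processed with CASAVA (version 1.6), pooled and mapped to mm9 with Bowtie (version 0.12.8). Peaks were then called with MACS (version 1.4.1) at its default settings, and those with a p-value below 1e-10 were kept. The authors deposited 1 list of peak positions per day, with a MACS score (the p-value as a negative log10, multiplied by 10), and the deposited score was used here only to rank and filter peaks within a list. The lists hold no read counts, so that depth was not used here. The raw reads listed by the study were most numerous for day 0, the shortest list. How depth bears on list length was not tested. The input DNA, read signal and expression data were not analysed here.

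Positions were converted to 1-based and compared with NCBIM37, the assembly behind mm9 (0 peaks ended beyond a chromosome). Genes and transcripts were those of GENCODE M1 (Ensembl 65), which may differ from the annotation used by the authors. All peaks overlapping a window by 1 bp were counted for 22367 protein-coding genes, and percentiles took ties at their middle rank. The start site was any annotated transcript start, and the motif was searched in the NCBIM37 sequence. Regions over a start site, regions with a peak at every day and the top-ranked region of each gene and day are given in full, with sequence at the top-ranked day 9 region of each gene. Other single regions were named after their values were seen. The 8 genes and the lists of pathway genes were chosen with earlier results of these data known. Draxin was listed too but its symbol was not matched.

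Binomial intervals are exact (Clopper-Pearson) and cover counting error only. No test was made between days. The scripts (Python 3.11.15, NumPy 2.4.6, SciPy 1.17.1) were tested on simulated data. Alternatives were the score minimum, lists of equal length, flanks of 10 and 100 kb, assignment by peak center, joining of close peaks, the distance to a start site and the motif definition.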

Additional observations from a re-analysis of the deposited data

How the results depend on the processing

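Counts moved with the score minimum, as its construction requires. At p-values of 1e-20, 1e-50 and 1e-100, the 8 windows held 8, 3 and 1 peaks at day 0, 21, 8 and 3 at day 9, 17, 6 and 0 at day 28, and 26, 11 and 4 merged regions. With flanks of 10 kb the counts were 8, 22 and 13 peaks at the 3 days and 25 regions, and with flanks of 100 kb 26, 65 and 54 peaks and 87 regions. Lists of equal length gave 12 peaks at day 9, 15 at day 28 and 21 regions. Genes with a day 9 peak over any annotated start site numbered 1 in place of 2 at 1e-50, at 1e-100 and with equal lists. TGTGGT was in 47.4% of day 9 peaks within 100 bp of the center and in 57.9% anywhere in the peak, against 26.3% within 50 bp. Over all day 9 peaks the shares were 37.4%, 58.7% and 25.3%, in the same order. Of alternatives chosen after seeing the data, day 0 held 10 peaks when only regions nearest to the start of their own gene were kept, and 8 without Dkk3. The excess of day 0 over day 9 peaks at Dkk3 (day 9 minus day 0, -1) turned to 1 at 1e-50, to 5 with flanks of 100 kb and to 1 with regions nearest to its own start, and was -5 with lists of equal length. This difference was 0 with flanks of 10 kb and at 1e-100. The excess of day 9 over day 0 peaks at Sfrp2 (3) turned to -2 with lists of equal length. The other 24 of 54 values of the main counts moved by no more than 1.5 times or stayed within the interval.

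Since the 2 libraries of a day were pooled before peaks were called, no replicate was left out and there is no replicate error. No paired analysis was possible because each day has 1 pooled list. Each day differs from the others in list length as well, which cannot be told apart from day in these files.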

Other observations

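The bases covered by peaks in the Dkk3 window were 7177 at day 0, 3781 at day 9 and 5553 at day 28, so that the coverage differed more between days 0 and 9 than the peak counts did. In the Sost window, 2894, 4901 and 3507 bases were covered, and in the Wif1 window 1076, 3543 and 1651. The median width of peaks was 917 bp at day 0, 554 bp at day 9 and 763 bp at day 28 over the whole lists, and 841, 506 and 693 bp over the 8 genes. Equal counts can therefore go with unequal covered length, as for Sfrp2, with 6 peaks at both day 9 and day 28 and 3099 and 5101 bases covered. With peaks closer than 500 bp joined, Sfrp2 had 4 peaks at day 9 and 5 at day 28, the same order as the covered bases.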
